A study of Homo sapiens with 12 samples.

Results

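This is a comparison of 2 stable lines of ARPE-19 cells, both expressing an open reading frame (ORF) with a biological function, against both control groups of the same experiment. ARPE-19 is an established cell line from human retinal pigment epithelium (RPE). The 6 ORF libraries are 3 of a line expressing GSTA4 and 3 of a line expressing OSK, read here as the reprogramming factors POU5F1, SOX2 and KLF4. The 6 control libraries are 3 of a GFP line and 3 of cells labelled WT, for which no ORF is given. All 12 libraries of the series were used, and poly(A) RNA was collected, in the GFP, GSTA4 and OSK cells after 4 days of ORF expression. Per the labels, GSTA4, OSK and GFP cells are stable lines. Whether a group is 1 line or several, which promoter drives the ORF and how the WT cells were grown are not given in the sources used here. Genes were named where all 6 ORF libraries lay above, or all 6 below, all 6 control libraries in CPM, the read count scaled to the size of its library, with a mean of at least 1 CPM. The 4 ORF genes were left out. Of 13690 such genes, 1320 met this rule, 612 with higher and 708 with lower levels in both ORF lines.

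The RPE is the pigmented monolayer behind the photoreceptors. Its cells are held together by cadherin-based and tight junctions, and in disease they can lose these contacts, take up a fibroblast-like state and lay down matrix under the influence of transforming growth factor beta (TGF-beta). GSTA4 is the glutathione transferase that conjugates 4-hydroxynonenal, an aldehyde formed when membrane lipids are oxidised. POU5F1, SOX2 and KLF4 are transcription factors that together push differentiated cells toward an earlier state.

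The ORF genes matched the labels. GSTA4 stood at a mean of 415 CPM in the GSTA4 line and at 20.2, 8.78 and 5.46 CPM in OSK, GFP and WT. KLF4 stood at 927 CPM in OSK and at no more than 1.57 CPM in the other groups, and POU5F1 and SOX2 at 778 and 627 CPM in OSK and at no more than 0.22 CPM elsewhere. Total counts ran from 12630675 to 17045454 per library, so that 3 reads, the upper limit that a count of 0 allows, came to 0.177 to 0.228 CPM. The GFP replicate 1 library had the fewest reads, and it showed reads on 27349 genes with a symbol, where the other 11 libraries showed 19488 to 22073. Reads on mitochondrially encoded genes made up 5.99% to 6.54% of the control libraries and 6.81% to 7.82% of the ORF libraries. Of the RPE markers, PAX6 and OTX2 were well detected in every group, while RPE65 and TTR, which mark mature RPE, stood below 1 CPM in all 4 groups. Of 19 pluripotency markers other than the ORF genes, 18 had a mean below 1 CPM, and NANOG was at 0 in all OSK libraries. The labels do not say that libraries of a group came from separate cultures, so p-values measure only the spread between these libraries. Fewer cells of a kind and less RNA per cell cannot be told apart in bulk RNA.

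The question that this comparison answers is what the GSTA4 and OSK lines had in common beyond the carriage of a control ORF. In the edgeR quasi-likelihood test of the mean of both ORF lines against the mean of both controls, 6609 of 15179 genes (43.5%) had an adjusted p of at most 0.05. Of these, 3408 (22.5%) were higher and 3201 (21.1%) lower. The balance turned with the scaling, with 2811 higher and 3692 lower genes for library size alone. Most of them were not shared in the stricter sense: for 5030 genes with at least 1 CPM the test passed although the 6 ORF libraries overlapped the 6 controls. The 1320 genes without overlap made up 9.64% of the 13690 genes, 4.47% higher and 5.17% lower. All 1320 were tested, and 1314 of them were past the threshold, which the way they were chosen largely fixes. Their changes were mostly small. The median log2 change was 0.436 for the 609 higher genes and -0.685 for the 705 lower genes, beside 0.0041 for all tested genes. In each of the 4 comparisons of an ORF line with a control, 25 higher and 74 lower genes moved by 1 log2 unit or more.

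Levels of the shared genes were also compared within the ORF lines and within the controls. The rule used all 12 libraries and favours genes with little spread and with both lines on one side, so these values describe the chosen genes and are no test of them against other genes. OSK and GSTA4 differed by the edgeR test in 554 of the 1314 genes (42.2%), beside 47.8% of all tested genes. Among the 554, OSK lay farther from the controls in 365 and GSTA4 in 189. This split was uneven by direction: OSK lay farther for 201 higher and 164 lower genes, GSTA4 for 47 higher and 142 lower genes. For 746 genes (56.8%) the 95% interval of the difference between OSK and GSTA4 lay within 0.5 of 0 on the log2 scale. That share was 40.8% over all genes with at least 1 CPM, and the choice of genes favours a higher one. GFP and WT differed in 262 genes (19.9%), beside 22.2% of all tested genes, and without GFP replicate 2 that count was 171. Neither difference was past the threshold in 646 genes.

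Comparisons that use different libraries on both sides gave a further view. GSTA4 against GFP shares no library with OSK against WT. Of 2224 genes higher in GSTA4 than in GFP (14.7% of all tested), 663 were also higher in OSK than in WT, which is 29.8% of the former list and 19.2% of the latter, where 22.7% of all genes were higher in OSK. Another 527 of the 2224 went the opposite way. Of 2212 genes lower in GSTA4 than in GFP (14.6%), 835 were also lower in OSK than in WT, or 37.7% and 24.3% of the respective lists against 22.7% of all genes, and 527 went the opposite way. For GSTA4 against WT and OSK against GFP, the shared count was 791 higher genes (26.5% and 22.6% of the lists, with 19.7% and 23.1% of all genes called) and 847 lower genes (29.4% and 24.5%, with 19% and 22.8% of all genes called). The opposite direction was found in 788 and 809 genes. Taken alone, the edgeR test called 29.2% of all genes in GSTA4 against GFP, 38.6% in GSTA4 against WT, 45.9% in OSK against GFP and 45.4% in OSK against WT.

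With only 2 groups on either side, the spread between groups sets a limit on all of these counts. That spread includes the unlike effects of the GSTA4 and OSK ORFs and the unlike GFP and WT controls. It cannot be told apart here from spread between lines with the same ORF. With limma-voom, the line, meaning the group, was taken as a random block, with a consensus correlation of 0.617. Of 15179 genes, 267 passed (87 higher, 180 lower), all among the 1320 genes without overlap. At this share of all genes, 0 members called in a list is near the background and says little about that list. With limma on the mean of each line, 0 genes passed the adjusted threshold and 860 had an unadjusted p of at most 0.05. Of the 24 genes named below for the size of their change, 12 were called with the line as a block: CDH10, NRP1, PHLDA1, PGM5P2, KITLG, HS3ST5 and CD82 among the higher genes, and RAB17, RGS9, COL1A1, RGS5 and SAMD11 among the lower ones.

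NRP1, CDH10, PHLDA1, KITLG and CD82 were among the 12 higher genes with the largest changes. NRP1, a co-receptor of class 3 semaphorins and of vascular endothelial growth factor, had 11.9, 10.3 and 11.3 CPM in WT, 25.5, 20.4 and 20 in GFP, 60.2, 65.1 and 63 in GSTA4 and 70.4, 73.5 and 88.1 in OSK. The lowest ORF library stood 2.36 times above the highest control. Its averaged log2 change was 2.15 (SE 0.07, edgeR adjusted p 8.84e-15). NRP1 also differed within each side, by 0.97 between GFP and WT (adjusted p 6.89e-06) and by 0.301 between OSK and GSTA4 (adjusted p 0.0103).

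CDH10, a type II cadherin, was level within each side: 4.16, 3.45 and 2.95 CPM in WT and 3.64, 2.72 and 3.53 in GFP against 9.33, 13 and 12.6 in GSTA4 and 11.4, 12.3 and 15.4 in OSK. Its change was 1.85 (SE 0.14, edgeR adjusted p 5.94e-10), and OSK and GSTA4 differed by 0.17 with an SE of 0.17. PHLDA1, a pleckstrin homology-like protein induced by growth signals, rose from 7.77 to 11 CPM over the control libraries to 23.9 to 34.4 over the ORF libraries, with a change of 1.66 (SE 0.09). KITLG, the ligand of the KIT receptor, rose from 1.9 to 2.86 CPM to 5.7 to 7.76, a change of 1.5 (SE 0.15). CD82, a tetraspanin, rose from 11.7 to 16 CPM to 32 to 42.8, a change of 1.43 (SE 0.08). For PHLDA1, KITLG and CD82 neither the difference between OSK and GSTA4 nor that between GFP and WT passed the test. OSK and GSTA4 libraries overlapped for all 3 genes, and GFP and WT libraries for KITLG and CD82. For PHLDA1 the GFP libraries, at 9.91 to 11 CPM, lay above the WT libraries, at 7.77 to 9.63.

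Other higher genes had changes of unequal size in the lines. ADGRG6, an adhesion G protein-coupled receptor required for Schwann cell myelination, had 1.18, 1.17 and 1.18 CPM in WT, 2.2, 2.65 and 2.04 in GFP, 9.07, 7.5 and 11.3 in GSTA4 and 25.6, 35.1 and 38 in OSK. All 4 groups were apart from each other in the order WT, GFP, GSTA4, OSK. CPA4, a secreted carboxypeptidase, had 24.8, 33.7 and 35.2 CPM in GSTA4 but 249, 394 and 444 in OSK, against 3.48 to 14.9 in the controls. DCLK1, a microtubule-binding kinase of the doublecortin family, was near the limit of detection in WT (1, 6 and 0 reads) and reached 1.97, 2.7 and 3.09 CPM in GSTA4 and 6.47, 7.08 and 7.03 in OSK. SEMA6D, a transmembrane semaphorin, and HS3ST5, a heparan sulfate sulfotransferase, were likewise higher in OSK than in GSTA4. CLDN11, the claudin of myelin and Sertoli cell tight junctions, was not past that threshold: it had 3.49 to 3.98 CPM in GSTA4, 3.2 to 5.69 in OSK and 0.716 to 1.44 in the controls. PGM5P2 is an annotated pseudogene of a phosphoglucomutase with close relatives, so that reads may be split between copies. It had 48 to 61.8 CPM in the ORF libraries and 10.9 to 21.9 in the controls.

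**Figure D1:**
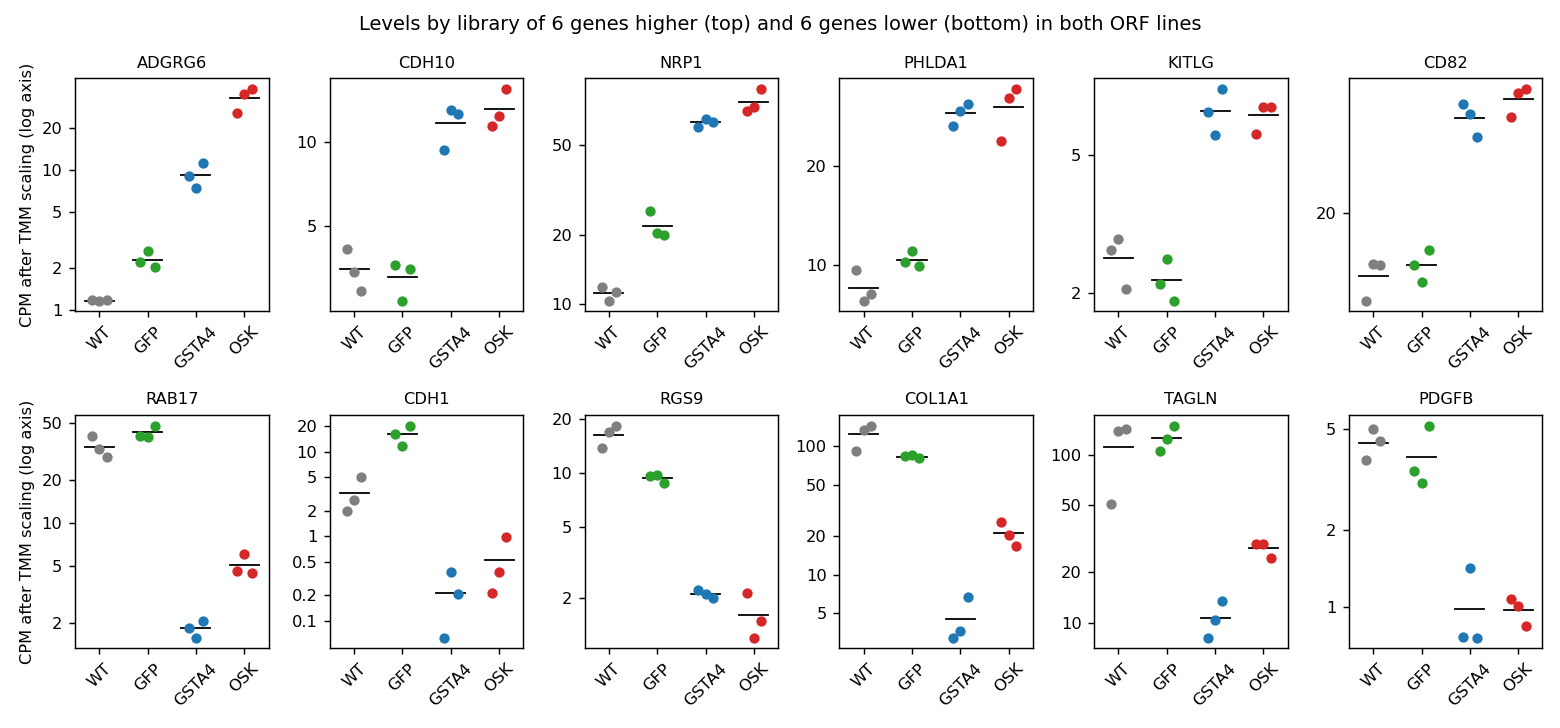
Level of 12 genes in each library, in CPM after TMM scaling on log axes that do not start at 0. Points are the 3 libraries of WT, GFP, GSTA4 and OSK, and bars are group means; for each gene all 6 ORF libraries lie on one side of the 6 controls, as for NRP1, where the lowest ORF library is 2.36 times the highest control.

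By the same measure, the smallest of the 4 changes, RAB17, CDH1, COL1A1 and TAGLN were among the 12 lower genes with the largest changes. RAB17, an epithelial Rab GTPase of polarised membrane traffic, had 40.6, 32.7 and 28.7 CPM in WT and 40.6, 40 and 47.6 in GFP. It had 1.84, 1.57 and 2.06 CPM in GSTA4 and 4.62, 6.07 and 4.43 in OSK. The lowest control was 4.73 times the highest ORF library, and the averaged change was -3.64 (SE 0.11, edgeR adjusted p 3.31e-15). CDH1, or E-cadherin, the cadherin of epithelial junctions, had 16.3, 11.5 and 20.2 CPM in GFP and 1.99, 2.71 and 5.07 in WT. It had 0.0635, 0.375 and 0.206 CPM in GSTA4 and 0.213, 0.379 and 0.984 in OSK, all below 1 CPM. GFP exceeded WT by 2.28 (SE 0.30, adjusted p 2.4e-05), so the size of the fall depended on the control used: -6.22 and -4.92 against GFP but -3.94 and -2.63 against WT for GSTA4 and OSK.

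COL1A1, the alpha 1 chain of type I collagen, had 91.5, 133 and 143 CPM in WT, 82.8, 84.4 and 80.2 in GFP, 3.24, 3.67 and 6.66 in GSTA4 and 25.7, 20.1 and 16.8 in OSK. The averaged change was -3.37 (SE 0.13, edgeR adjusted p 5.15e-14), and OSK exceeded GSTA4 by 2.2 (adjusted p 5.44e-08). TAGLN, the smooth muscle actin-binding protein transgelin, had 51.1, 138 and 143 CPM in WT and 106, 124 and 149 in GFP, against 8.19, 10.4 and 13.6 in GSTA4 and 29.6, 29.7 and 24.3 in OSK. WT replicate 1 was the lowest control for TAGLN and still 1.72 times the highest ORF library. RGS5, a regulator of G protein signalling known from pericytes, is on 2 lines of the table. The protein-coding line had 41.8 to 87.7 CPM in the controls, 3.15 to 3.78 in GSTA4 and 16.1 to 21 in OSK.

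For other lower genes the difference between the lines did not pass the test. RGS9, the regulator that speeds shut-off of phototransduction in photoreceptors, had 2.22, 2.1 and 1.99 CPM in GSTA4 and 2.13, 1.2 and 1.48 in OSK, against 13.7, 16.9 and 18.3 in WT and 9.64, 9.74 and 8.75 in GFP. Its change was -2.75 (SE 0.14, edgeR adjusted p 2.33e-12), and GFP minus WT was -0.80 (adjusted p 0.00112). PDGFB, a chain of platelet-derived growth factor, had 0.762 to 1.42 CPM in the ORF libraries and 3.08 to 5.16 in the controls, and OSK and GSTA4 differed by 0.01 with an SE of 0.37. SAMD11, a sterile alpha motif protein, had 6.37 to 8.71 CPM in the ORF libraries and 18.3 to 47.2 in the controls. PLB1, a phospholipase, had 0.618 to 2.02 CPM against 3.73 to 10.

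TREH, ACTC1 and ZBTB8B were, of the 12 lower genes ranked first by their smallest change, those with the lowest mean. TREH, trehalase, had 0.142 to 0.45 CPM in the ORF libraries and 0.497 to 2.59 in the controls, and ZBTB8B, a zinc finger gene, 0 to 0.825 against 0.931 to 2.73. ACTC1, cardiac muscle alpha actin, was at or under 3 reads in all 3 GSTA4 libraries. The counts of ACTC1 there were 3, 2 and 3. The limit of 3 reads holds for a count of 0, so it sets no least size for this fall. The fitted log2 change of ACTC1 in GSTA4 was -3.05 (SE 0.541) against GFP and -4.31 (SE 0.497) against WT.

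**Figure D2:**
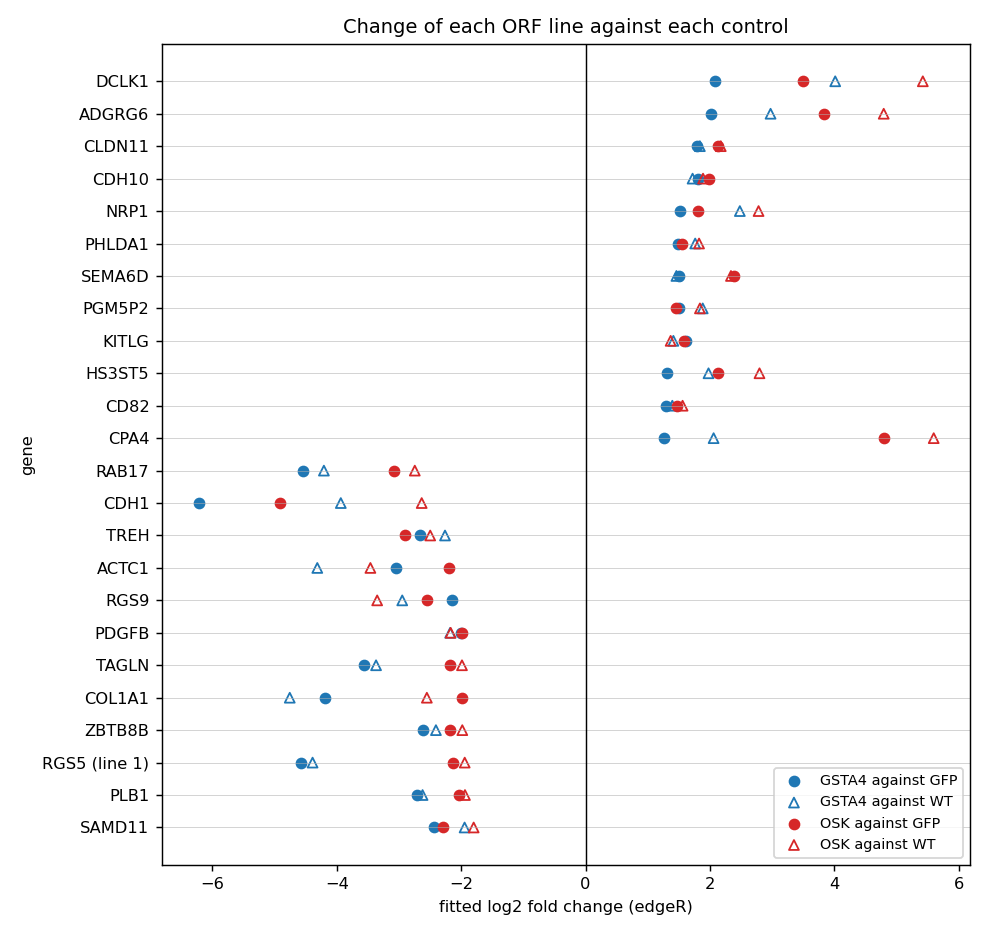
Fitted log2 fold change of the 24 named genes in each of the 4 comparisons of 1 ORF line (blue, GSTA4; red, OSK) with 1 control (filled circles, GFP; open triangles, WT). All 4 points of a gene lie on the same side of 0, as the choice of genes requires; RAB17 runs from -4.54 to -2.75 and KITLG from 1.37 to 1.62, while CPA4 spreads from 1.27 to 5.6.

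Promoter sequences are shown for genes near the head of both directions by their smallest change, since these genes moved together in both lines. They are RefSeq sequences of build GRCh38.p14, printed 5′ to 3′ on the strand of the gene for up to 250 bases before the listed start. Capitals mark the E2-box CAGGTG on either strand, the element bound by ZEB and SNAI repressors. Only the stretch outside annotated exons is printed.
DCLK1, chr13:36131940-36132189, minus strand, the first of 3 listed starts: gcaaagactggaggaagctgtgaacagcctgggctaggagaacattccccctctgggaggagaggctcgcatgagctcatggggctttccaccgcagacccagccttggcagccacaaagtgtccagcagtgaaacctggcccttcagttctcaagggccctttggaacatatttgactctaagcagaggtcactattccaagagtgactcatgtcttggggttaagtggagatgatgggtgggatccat
ADGRG6, chr6:142301757-142301853, plus strand: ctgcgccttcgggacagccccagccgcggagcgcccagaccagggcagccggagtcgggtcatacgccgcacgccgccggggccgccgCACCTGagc
TREH, chr11:118679691-118679900, minus strand: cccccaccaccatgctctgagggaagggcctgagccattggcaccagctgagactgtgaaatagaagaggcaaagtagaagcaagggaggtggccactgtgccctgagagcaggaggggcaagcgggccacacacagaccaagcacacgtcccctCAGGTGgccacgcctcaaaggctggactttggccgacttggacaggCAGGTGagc
The DCLK1 stretch holds no CAGGTG, ADGRG6 holds 1 match and TREH holds 2. Of the lower genes RAB17 and CDH1 rank before TREH. The window of RAB17 lies inside an annotated exon and is not printed, and the promoter of CDH1 was not analysed here.

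Across all genes, the share of promoters with a motif is given as a description. Matches to CAGGTG on either strand were found in 17.5% of all 27305 RefSeq promoters of 250 bases. They were found in 13.7% of 482 promoters of the higher genes, 18% of 543 of the lower genes and 15.5% of 9476 of the other genes with at least 1 CPM. The AP-1 element TGANTCA, found in DCLK1, was in 4.77%, 4.6% and 3.54% of the same sets. TGACNNNGC, the core of the antioxidant response element, was in 16%, 12.3% and 11.9%. No test was made of these shares.

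TGF-beta targets held the largest share of shared lower genes among the 30 gene lists other than cell type markers. The lists were chosen with earlier results of these data known, so this rank is a description only. Over all tested genes 21.1% fell and 22.5% rose, and 5.17% of genes with at least 1 CPM lay below all controls. Of 25 tested TGF-beta targets, 22 fell and 2 rose in the averaged edgeR contrast. Of these targets 11 lay below all controls while TIMP1, an inhibitor of matrix metalloproteinases, lay above. The median change of the list was -0.92. The 11 lower members included the TGF-beta feedback inhibitors SMAD7 and SKI, the latent TGF-beta binding protein LTBP2, the matrix proteins TGFBI, THBS1 and COL1A1, and CCN2, or connective tissue growth factor. LTBP2 had 358, 747 and 780 CPM in WT and 450, 490 and 570 in GFP, against 54.4, 56.1 and 64.7 in GSTA4 and 150, 146 and 156 in OSK. CCN2 had 1640, 1980 and 2020 CPM in WT, 1210, 1220 and 1270 in GFP, 415 to 476 in GSTA4 and 542 to 623 in OSK. For CCN2, GFP minus WT was -0.611 (edgeR adjusted p 1.51e-05). In the test between the lines, 17 of the 25 members were higher in OSK than in GSTA4 and 4 lower, so GSTA4 held the lower level for most. Over all tested genes, 24.1% were higher in OSK than in GSTA4 and 23.8% lower. The median change was -1.37 and -1.67 for GSTA4 against GFP and WT, and -0.597 and -0.561 for OSK. GFP itself was lower than WT in 13 of the 25 members and higher in 3, with a median of -0.238. Over all tested genes, GFP was lower than WT in 11.2% and higher in 11%. With the line as a random block in limma-voom, 9 of the 25 were called, beside 267 of all 15179 tested genes.

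Matrix and adhesion genes went in both directions. Of 21 tested collagens 5 rose and 10 fell, with COL9A2, COL16A1, COL1A1 and COL18A1 below all controls and the basement membrane collagens COL4A5 and COL4A6 above. Over all tested genes, 22.5% rose and 21.1% fell. The median of the collagens was -0.543 and -0.713 for GSTA4 against GFP and WT but 0.0962 and 0.121 for OSK, and the line as a random block left 3 called. Of 43 other matrix and remodelling genes 14 rose and 20 fell, and 5 were called with the line as a random block. That model called 267 of all 15179 tested genes. MMP2, a gelatinase, had 55 to 75.7 CPM in the controls, 26.2 to 40 in OSK and 3.52 to 6.35 in GSTA4. FBLN5, an elastic fibre protein, had 20.8 to 82.4 CPM in the controls and 9.96 to 20 in the ORF libraries, a gap of 1.04 times, and it was 1.2 higher in GFP than in WT (adjusted p 2.79e-05). ITGA11, a collagen-binding integrin chain, met the rule with very unequal values: 120 to 224 CPM in the controls, 55.4 to 86.9 in OSK, and 0.0635, 0 and 0.275 in GSTA4. ITGA7, a laminin-binding chain, rose instead, from 159 to 194 CPM to 279 to 296 in GSTA4 and 351 to 378 in OSK.

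Epithelial genes were mostly lower, and 4 of 6 tested fibroblast and mesenchymal markers fell. Of all genes with at least 1 CPM, 5.17% lay below and 4.47% above all controls. Of 27 tested tight junction and epithelial genes 15 fell and 5 rose, with a median of -0.47, or -0.10 and -0.30 for GSTA4 against GFP and WT and -0.55 and -0.65 for OSK. Over all tested genes 21.1% fell and 22.5% rose. With the line as a random block 2 members were called, beside 267 of all 15179 tested genes. CRB3, DSC2, KRT7, KRT8, JUP and OCLN lay below all controls and CLDN11 above. KRT7, a simple epithelial keratin, had 774, 1130 and 1100 CPM in WT and 1080, 1170 and 1290 in GFP, against 550, 502 and 522 in GSTA4 and 609, 676 and 674 in OSK. ZEB1, a repressor of CDH1, rose from 13.6 to 17.3 CPM to 18.9, 18.7 and 21.6 in GSTA4 and 38.7, 40.8 and 47.5 in OSK. It was not called with the line as a random block (limma-voom adjusted p 0.172), and a link to CDH1 was not tested. Of 14 tested cadherins and epithelial-mesenchymal transition factors 7 rose and 4 fell, and 1 was called with the line as a random block. Their median was 0.4 and 0.276 for GSTA4 against GFP and WT but -0.258 and -0.257 for OSK. Of 17 tested RPE markers 9 fell and 3 rose, and OTX2, KRT8 and PMEL lay below all controls. LRAT, RDH5 and SERPINF1 were the 3 that rose, by 1.13, 1.15 and 0.297 (edgeR adjusted p 8.87e-05, 1.14e-06 and 0.0168). Of the 17 markers 0 lay above all controls. Mean LRAT was 14.3 CPM in the GSTA4 line but 1.39 in OSK, below the 3.88 of GFP. Mean RDH5 was highest in OSK, at 13.5 CPM, beside 5.51 in the GSTA4 line and 4.96 in GFP. The median of all 17 RPE markers was -0.507 and -0.357 for GSTA4 against GFP and WT, and -0.776 for OSK against GFP but 0.131 for OSK against WT. GFP was higher than WT in 11 of the 17, beside 11% of all tested genes, and the line as a random block left 1 called. PMEL, a melanosome fibril protein, had 175, 284 and 274 CPM in WT and 315, 390 and 365 in GFP, against 85.2, 110 and 109 in GSTA4 and 114, 110 and 108 in OSK. Among 6 tested fibroblast and mesenchymal markers 4 fell and lay below all controls, FAP, COL1A1, PDGFRB and TAGLN. ACTA2 was the 1 that rose (averaged log2 change 0.354, edgeR adjusted p 0.0222), and S100A4 was not called. Mean ACTA2 was highest in the GSTA4 line, at 23.9 CPM. OSK, at 10.5, lay between the controls, at 8.68 for WT and 17.7 for GFP. Of the 6 markers 1 was called with the line as a random block. Of the 15 genes on that list 9 had a mean below 1 CPM. Its summed level was 838.1 to 949.4 CPM in the control libraries, 561.6 to 601.5 in GSTA4 and 379.1 to 442.8 in OSK. The part of a changed cell mixture in these values was not tested.

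**Figure D3:**
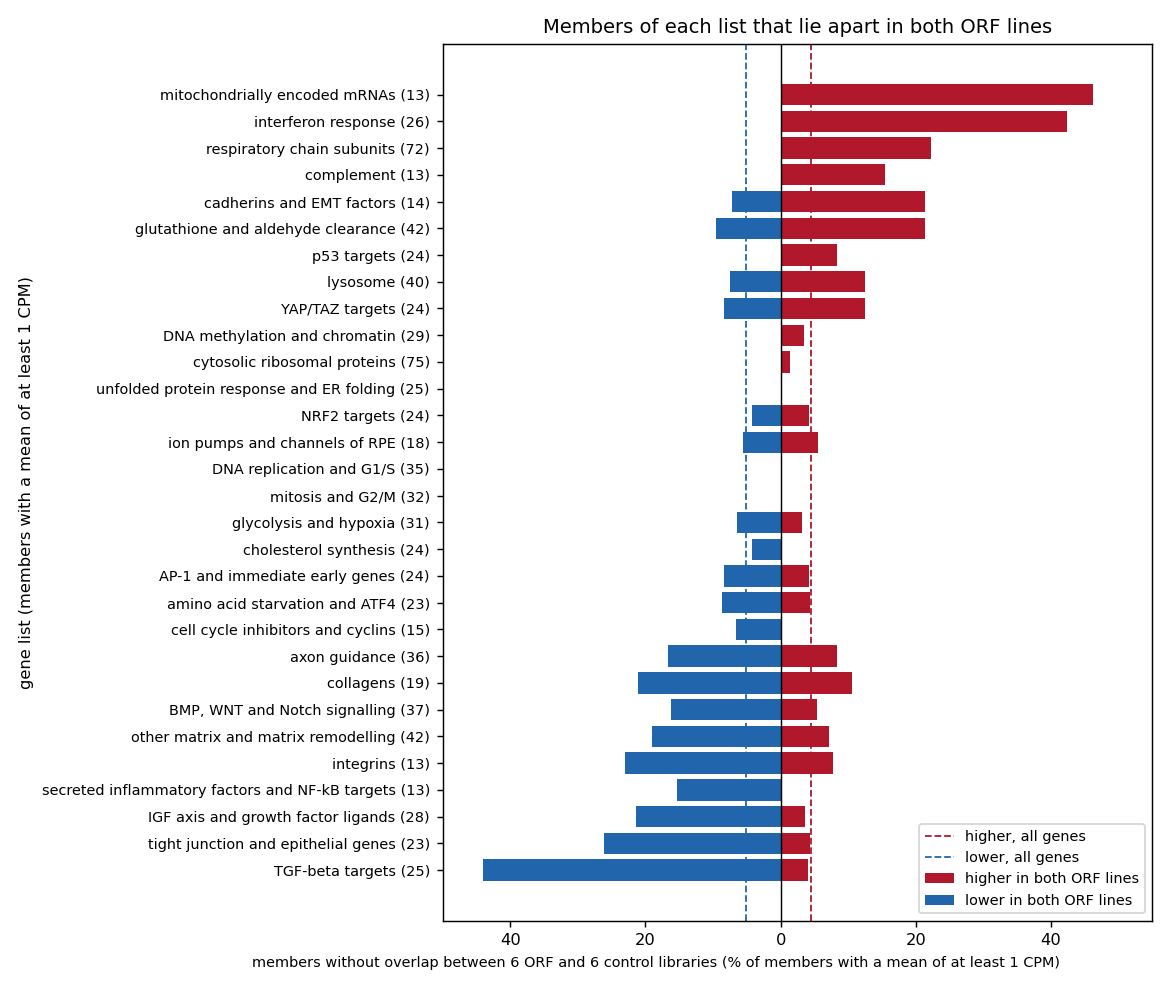
Share of the members of 30 gene lists that lay above (right) or below (left) all 6 controls in all 6 ORF libraries, in percent of members with a mean of at least 1 CPM, whose number stands in brackets. Dashed lines mark the share over all genes, 4.47% higher and 5.17% lower; TGF-beta targets lie farthest to the left, with 11 of 25, and mitochondrially encoded mRNAs farthest to the right, with 6 of 13.

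Genes of antigen presentation and the interferon response were higher. Over all tested genes 22.5% rose and 21.1% fell, and 4.47% of genes with at least 1 CPM lay above all controls. Of 31 tested members of this list 21 rose and 2 fell, with a median of 0.75. The median was 0.324 and 0.654 for GSTA4 against GFP and WT, and 0.823 and 0.908 for OSK. Of 26 members with at least 1 CPM, 11 lay above all controls. These included B2M, the light chain of class I molecules, the peptide transporter TAP1, the immunoproteasome subunits PSMB8 and PSMB9, and IFIT1, IFIT2, IFITM2 and IFITM3. B2M had 216, 185 and 200 CPM in WT, 238, 285 and 260 in GFP, 472, 492 and 494 in GSTA4 and 581, 667 and 726 in OSK, a change of 1.31 (SE 0.06, edgeR adjusted p 2.9e-13). B2M was higher in OSK than in GSTA4, by 0.44 (adjusted p 0.000104). PSMB9 rose from 1.47 to 4.44 CPM to 4.63 to 8.18 in GSTA4 and 9.66 to 15.8 in OSK, and it was already 1.18 higher in GFP than in WT (adjusted p 0.00591). Of the list, 15 members were higher in OSK than in GSTA4 and 2 lower, beside 24.1% and 23.8% of all tested genes. In GFP, 11 members were higher than in WT, beside 11% of all tested genes. With the line as a random block 6 members were called, beside 267 of all 15179 tested genes. Of 10 immune cell markers 9 had a mean below 1 CPM. Complement genes rose in 11 of 14 tested members and fell in none, and C3 and CLU lay above all controls. With the line as a random block 0 were called, and the summed level of the complement list had a mean of 1726 CPM in GSTA4 beside 1735 in GFP, 1569 in WT and 4096 in OSK.

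Respiratory chain genes of both genomes were higher by small amounts. Over all tested genes 22.5% rose and 21.1% fell, and 4.47% of genes with at least 1 CPM lay above all controls. Of 73 nuclear-encoded subunits 51 rose and 1 fell, with a median of 0.21, and 16 of 72 lay above all controls while none lay below. The median was 0.22 and 0.179 for GSTA4 against GFP and WT, and 0.192 and 0.185 for OSK against GFP and WT. NDUFS4, a complex I subunit, had 16.1, 20.5 and 17.9 CPM in WT, 16.6, 18.8 and 19.8 in GFP, 25.8, 27.2 and 26.4 in GSTA4 and 27.8, 23.5 and 26.1 in OSK. COX5B, a complex IV subunit, had 39 to 48.1 CPM in the controls and 53.7 to 64.3 in the ORF libraries. OSK and GSTA4 differed by -0.04 (SE 0.10) for NDUFS4 and by 0.08 (SE 0.08) for COX5B. Of 13 mitochondrially encoded mRNAs 12 rose, with a median of 0.26, and 6 lay above all controls. MT-CYB, cytochrome b, had 5580 to 5960 CPM in the controls and 6700 to 7130 in the ORF libraries, a change of 0.26 (SE 0.04, edgeR adjusted p 2.98e-05). MT-CO1, the most abundant of the shared genes, had 14800 to 17200 CPM in the controls and 17900 to 21400 in the ORF libraries. Scaling by library size alone left 39 of the 73 nuclear-encoded subunits higher and 2 lower. With the line as a random block, 0 members of either list were called, which is near the 267 of all 15179 tested genes.

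Glutathione and aldehyde enzymes changed in both directions. Of 45 tested members 22 rose and 5 fell, with a median of 0.22, and GSTA4 itself was not among the genes named. The line as a random block left 4 members called, beside 267 of all 15179 tested genes. ALDH3B1, an aldehyde dehydrogenase, CAT, or catalase, the superoxide dismutase SOD1, the peroxiredoxins PRDX4 and PRDX6, GSTO2, GSTK1, GGT7 and GPX1 lay above all controls. GPX3, a secreted glutathione peroxidase, fell, with 1470, 1490 and 1480 CPM in WT, 1090, 1130 and 1130 in GFP, 382, 366 and 376 in GSTA4 and 572, 473 and 449 in OSK. GSTM3, a mu class transferase, fell from 69.9 to 98.8 CPM to 37.2 to 48.2, with no difference between the lines past the threshold (0.03, SE 0.11). ALDH1B1, a mitochondrial aldehyde dehydrogenase, fell from 117 to 207 CPM to 79 to 100. Targets of NRF2, the regulator of the oxidative stress response, rose in 5, fell in 6 and were not called in 14 of 25 tested members, beside 22.5% higher and 21.1% lower over all genes, and 0 were called with the line as a random block. Of 25 p53 targets 10 rose and 4 fell, and FAS and SESN1 lay above all controls. The median of the p53 targets was 0.297 and 0.246 for GSTA4 against GFP and WT but -0.0547 and -0.0875 for OSK. Of the 25 p53 targets, 17 were lower in OSK than in GSTA4, beside 23.8% of all tested genes. The line as a random block left 1 called. Over all genes the averaged contrast called 22.5% higher and 21.1% lower.

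BMP, WNT and Notch signalling genes fell more often than they rose. Of 42 tested genes of BMP, WNT and Notch signalling 23 fell and 8 rose, with a median of -0.30. The line as a random block left 6 called, beside 267 of all 15179 tested genes. Over all tested genes 21.1% fell and 22.5% rose. Of genes with at least 1 CPM, 5.17% lay below and 4.47% above all controls. ID3, a target of BMP signalling that is also on the TGF-beta list, had overlapping levels in the lines, with 78.2, 77.2 and 76.6 CPM in GSTA4 and 70.1, 82.1 and 80.5 in OSK, against 137 to 211 in the controls. BMP2, a ligand, had 22.9 to 29.5 CPM in the ORF libraries and 44.4 to 65.3 in the controls. SFRP1, SMAD6, FZD2 and BMPR2 also lay below all controls, and JAG1 and CHRDL1, an antagonist of BMP ligands, above. CHRDL1 had 31.8 to 52.1 CPM in the ORF libraries and 18.7 to 24.9 in the controls. Of 30 tested growth factors and genes of the IGF axis 11 rose and 12 fell, with a median of 0.0982, and the line as a random block left 1 called. PDGFB, PDGFD, VEGFA, VEGFB, INSR and IGF1R lay below all controls and TGFA above. CDKN2B, a cell cycle inhibitor induced by TGF-beta, had 199 to 330 CPM in the controls, 118 to 147 in OSK and 55.5 to 62.7 in GSTA4. Axon guidance genes split, 12 higher and 15 lower of 39, beside 22.5% higher and 21.1% lower over all tested genes. With the line as a random block 3 were called. NRP1, SEMA6D and ROBO1 lay above all controls and EPHB2, SEMA3C, SLIT2, SEMA4C, EFNA1 and PLXNB2 below.

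Proliferation genes passed the averaged test without being shared by the lines. All 33 tested mitosis genes were higher in the averaged contrast, beside 22.5% of all tested genes, with a median of 1.32. Yet 0 of them lay above all controls, beside 4.47% of all genes with at least 1 CPM. With the line as a random block 0 were called, which is near the 267 of all 15179 tested genes. The 4 comparisons differed: the median was -0.39 for GSTA4 against GFP, 1.65 for GSTA4 against WT, 1.15 for OSK against GFP and 3.07 for OSK against WT. The summed level of the list was 107.2 to 131.9 CPM in WT, 422.4 to 458.8 in GFP, 309.4 to 334.7 in GSTA4 and 884.6 to 1086 in OSK. MKI67, the proliferation marker Ki-67, had 7.52, 10.1 and 13.7 CPM in WT, 56.6, 57.5 and 59.1 in GFP, 38.1, 45 and 45 in GSTA4 and 140, 159 and 162 in OSK. MKI67 was chosen after its values were seen. The order WT, GSTA4, GFP, OSK was the same for the list and for MKI67, with no overlap between neighbours. Of DNA replication genes, 27 of 35 were higher in the averaged contrast, 0 lay above all controls and 0 were called with the line as a random block.

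Cholesterol synthesis genes had a median of 0.03 in the averaged contrast, beside -0.92 for GSTA4 against GFP and 0.59 for OSK against GFP, and all 24 tested members were higher in OSK than in GSTA4. Only LSS, lanosterol synthase, lay apart, below all controls. With library size alone the median of this list was -0.00171. Cytosolic ribosomal protein genes rose in 32 of 75 in the averaged contrast, with a median of 0.12, but 67 of the 75 were lower in OSK than in GSTA4, and RPL8 alone lay above all controls. Unfolded protein response genes rose in 11 and fell in 3 of 25, with 0 apart from the controls. Over all tested genes 22.5% rose and 21.1% fell, and 9.64% of genes with at least 1 CPM lay apart. In OSK against GSTA4, 24.1% of all tested genes were higher and 23.8% lower. With the line as a random block, 0 members of the cholesterol, ribosomal and unfolded protein response lists were called. That is near the 267 of all 15179 tested genes.

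**Figure D4:**
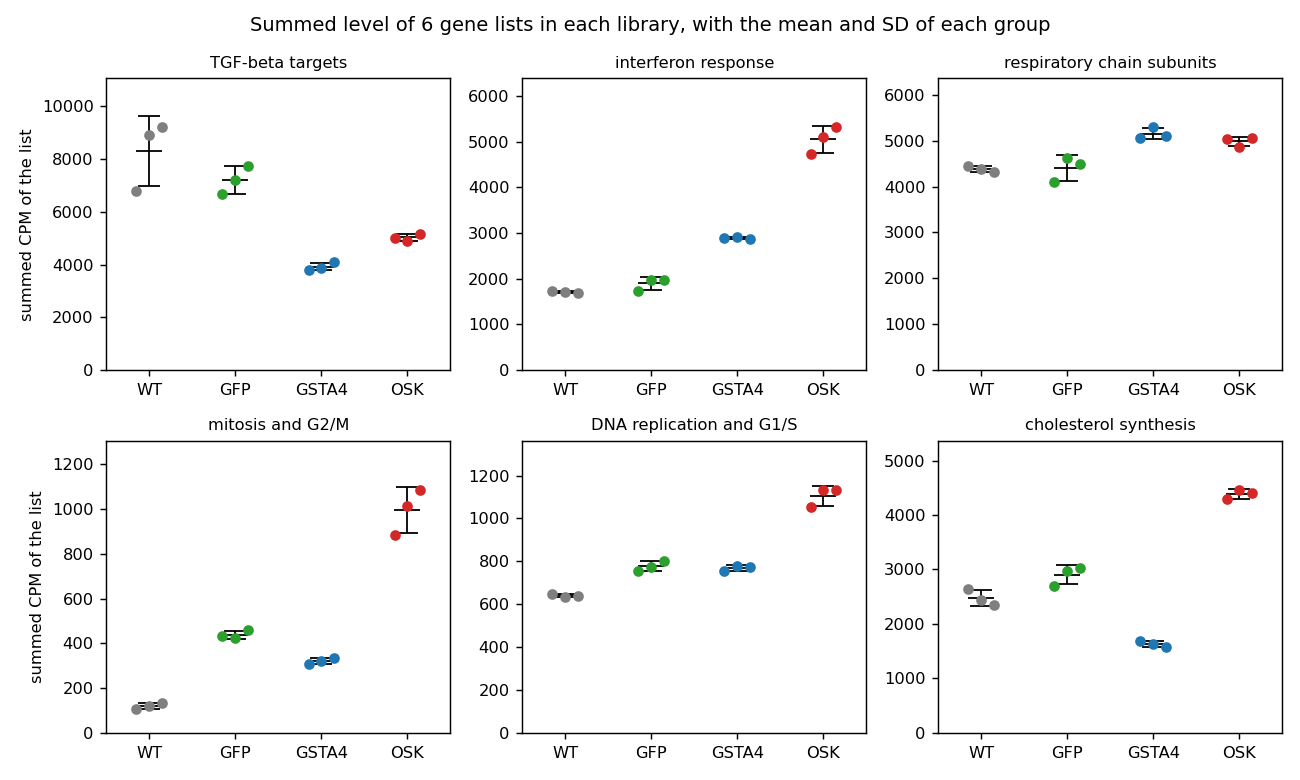
Summed CPM of the members of 6 gene lists in each library, on axes from 0. Points are libraries, and bars give the mean and SD of 3 libraries; TGF-beta targets, the interferon response and the respiratory chain lie to one side in both ORF lines, while for mitosis genes GSTA4 (309.4 to 334.7 CPM) lies below GFP (422.4 to 458.8 CPM).

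Gene type and position were not used by the rule. Protein-coding genes held 4.76% higher and 5.33% lower genes of 12272. Of 712 long noncoding RNAs with at least 1 CPM, 41 (5.76%) were lower and 6 (0.843%) higher. HCP5 had the largest rise among the 6, a change of 2.57, and CYTOR and MIR4435-2HG, which resemble each other in sequence, rose by 1.45 and 1.33. Antisense RNAs such as KRT7-AS and LOXL1-AS1 fell with the neighbouring KRT7 and LOXL1. Whether counting used strand is not given in the sources used here, so such pairs may share reads. Of processed pseudogenes, 9 of 379 (2.37%) were higher and 2 (0.528%) lower.

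Chromosome 11 held a high share of lower genes. By GENCODE 29 positions on GRCh38, 66 of its 721 genes (9.15%) were lower and 21 (2.91%) higher. Among 246 windows of 10 Mb with at least 20 genes, the window of chromosome 11 from 70 to 80 Mb had the highest share of lower genes, 16 of 70 (22.9%), beside a median of 4.86% and a next highest of 15.2%. This window was singled out after its values were seen and no test was made. Its 16 lower genes included PPME1, a protein phosphatase methylesterase, UCP2, a mitochondrial carrier, MYO7A, a motor protein of RPE melanosome transport, and GDPD5. The median change over all 70 genes was -0.18, with -0.30 for GSTA4 against GFP and -0.23 for OSK against GFP. Against WT it was smaller, -0.157 for GSTA4 and -0.158 for OSK. Protein-coding genes lower in both lines also had longer annotated exons, with a median of 6206 bases against 5253 for genes that were not apart and 5376 for higher genes. The share of lower genes was 3.4% among the shortest of equally sized length groups and 7.85% among the longest.

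The edge of the rule was narrow. EPS8, an adaptor of epidermal growth factor receptor signalling, had its lowest ORF library at 46.034 CPM and its highest control at 46.032, and lay inside. VAMP7, a vesicle SNARE, had 23.612 and 23.614 CPM and lay outside. KCNK15, a potassium channel, with a mean of 1.0005 CPM, was the least abundant gene inside, and CAPN6, at 0.994 CPM, lay just outside. Among the most abundant lower genes were TIMP3, an inhibitor of metalloproteinases that RPE secretes into its basement membrane, and CLSTN2, a calsyntenin. TIMP3 had 1880 to 2390 CPM in the controls, 1130 to 1210 in GSTA4 and 1470 to 1590 in OSK. CLSTN2 had 1780 to 2420 CPM in the controls, 882 to 968 in GSTA4 and 1050 to 1140 in OSK.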

How the data were processed

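RNA of 12 libraries was sequenced by the authors, 3 each of WT, GFP, GSTA4 and OSK cells. The authors deposited raw counts of reads for each gene. Per the submitters' processing notes, STAR 2.7.1a and featureCounts 1.6.2 were used, and the notes name GRCh38 among the builds. The annotation release and strand setting are not given in the sources used here. Of 60605 lines, 20014 had no symbol (0.485% to 0.822% of reads) and were left out.

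Genes were filtered with filterByExpr and tested with edgeR 4.0.16 (quasi-likelihood, TMM scaling, all 12 libraries, 1 mean per group, no covariate) in R 4.3.3. Tests were two-sided, with Benjamini-Hochberg adjustment over 15179 genes, with 0.05 as threshold. Changes are fitted log2 fold changes with the SE as the change over the root of F. Lack of overlap used CPM after TMM scaling. The alternatives used DESeq2 1.42.0 and limma 3.58.1. The scripts were tested on simulated data. No molecular identifiers are stated, so the limit of 3 reads covers counting error only.

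The genes named were, among those without overlap and past the threshold, the 12 per direction with the largest smallest change over the 4 comparisons of an ORF line with a control, up to 3 per list, the 3 most abundant per direction and those at the edge of the rule. MKI67 and the genes named only as list members or by position fall outside this rule. The members and lists were chosen with earlier results of these data known. The lists come from general knowledge of the field. The promoter table of RefSeq and GENCODE 29 were matched by symbol, the latter for 96.7% of genes with at least 1 CPM. Some members of the lists are not reported here.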

Additional observations from a re-analysis of the deposited data

Results flagged for a closer look

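For 10 of the 24 genes named for the size of their change, the edgeR test of OSK against GSTA4 found that the change against the controls differed in size between the lines. Higher in OSK than in GSTA4 on the log2 scale were CPA4 by 3.54, RGS5 by 2.45, COL1A1 by 2.2, ADGRG6 by 1.82, RAB17 by 1.46, DCLK1 by 1.41, TAGLN by 1.38, SEMA6D by 0.877, HS3ST5 by 0.82 and NRP1 by 0.301. For the 4 lower genes RGS5, COL1A1, RAB17 and TAGLN this places GSTA4 farther from the controls, and for the 6 higher genes it places OSK farther.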

How the results depend on the processing

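The count of 6609 genes in the averaged contrast was 6625 with RLE size factors, 6503 with library size alone (2811 higher, 3692 lower, so that 43.2% rather than 51.6% were higher), 6479 with DESeq2 and 6872 with the replicate number as a block. It moved to 267 with limma-voom and the line as a random block, to 0 with limma on line means (860 at an unadjusted p of at most 0.05), and to 289 with a minimum log2 change of 1. The 1320 genes without overlap numbered 1281 with library size alone, where 491 were higher and 790 lower, and 1154 were in both sets. They numbered 2578 with GFP alone and 3223 with WT alone as the control, which ask less of each gene. Leaving out 1 library at a time gave 6002 to 6668 genes in the averaged contrast. It gave 1394 to 1633 without overlap, as fewer libraries ask less of each gene. Of the 1314 shared genes, 484 to 586 differed between OSK and GSTA4, and 171 to 256 between GFP and WT. It gave 1198 to 1647 genes shared by GSTA4 against GFP and OSK against WT (1498 with all libraries) and 1365 to 1692 shared by the other pair (1638). Same-numbered libraries of different groups had deviations correlated at -0.0204 to 0.169, and differently numbered ones at -0.112 to 0.0875. WT replicate 1 had 0.169, 0.157 and 0.132 with replicate 1 of GFP, GSTA4 and OSK. The numbers were not taken to pair the samples in the main fit, and these values do not settle whether they do. With limma on line means 0 of the 100 named genes were called. Further alternatives were computed for each named gene, leaving out line means and the minimum change. There 1835 values kept their side of the threshold, 65 lost it and 0 changed direction. Of the 65, 62 were under the line as a random block. Most named genes were chosen for lack of overlap and for passing the threshold. That choice largely fixes this tally, which is no test of these genes. Depth limits CDH1, TREH, ACTC1, ZBTB8B and DCLK1, whose low groups hold a few reads.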

Other observations

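Among the 41 lower long noncoding RNAs were DISC1FP1, with a change of -2.06, TRHDE-AS1, with -1.86, KCNQ1OT1, an imprinted RNA, with -1.11, and the snoRNA hosts SNHG3 and SNHG5, with -0.48 and -0.78. These were singled out after their values were seen.

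JAG1, a Notch ligand, met the rule with very unequal values: means of 27.4 and 24.6 CPM in WT and GFP, 34 in GSTA4 and 222.7 in OSK. CSF1R, the receptor for colony-stimulating factor 1 and the sole tested immune marker, had means of 7.78, 17, 0.458 and 11.6 CPM in WT, GFP, GSTA4 and OSK.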
